A study of Mus musculus with 6 samples.

Results

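The drug-metabolizing cytochrome P450 genes outside the Cyp2c family, with the reductase that supplies their electrons, were followed in mouse liver RNA. The genes were picked by symbol: Cyp1a2, Cyp2a5, Cyp2b10, Cyp2d9, Cyp2d10, Cyp2e1, Cyp3a11, Cyp3a13, Cyp3a25 and Por. All 10 were found among the 22851 genes of the deposited expression matrix, and 9 of them had values high enough to be tested. The mice were males of the inbred strain C57BL/6J, and every animal in both groups was on a high-fat diet. Of the 6 libraries, 3 came from mice given ONX-0914, an inhibitor of the immunoproteasome subunit PSMB8, at 10 mg/kg under the skin on alternate days over 6 weeks. The other 3 came from high-fat-diet mice given vehicle. Libraries are named by group and number: ONX-0914 1, 3 and 4, and vehicle 1, 2 and 4. The design text gives 2 biological replicates per group against 3 libraries deposited, so the p-values rest on the spread among deposited libraries, part of which may be technical. The age of the animals, the length of the diet and the make-up of the vehicle are not given in the sources used here.

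Cytochrome P450s are heme enzymes of the endoplasmic reticulum that insert oxygen into drugs, steroids and other fat-soluble compounds. NADPH-cytochrome P450 reductase, the product of Por, passes electrons from NADPH to all of the microsomal P450s. In liver these genes are transcribed mainly in hepatocytes, several of them most strongly around the central vein, and many respond to the xenobiotic-sensing receptors AhR, CAR and PXR.

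The values were FPKM, read abundance set relative to gene length and library size, so levels can be compared between genes. Of the 9 genes tested, Cyp1a2 rose and Cyp2d9 fell with ONX-0914, and the other 7 did not pass the test in either direction. The test was limma on log2(FPKM + 1) over 10743 genes, and genes with a Benjamini-Hochberg adjusted p under 0.05 count as having risen or fallen. By that rule 46.1% of all tested genes were called, 43.5% lower and 2.56% higher. Groups did not overlap for 58.4% of genes, 53.5% lower and 4.93% higher. The median of the 9 log2 fold changes was -0.20, beside a median of -0.64 over all tested genes. Because of that shift, the genes are also described after scaling by median ratio, which brings the typical gene to a common level in every library. The median over all tested genes is then -0.01, and 28% of tested genes were called, 13.8% higher and 14.2% lower. Of the 9 genes, Cyp1a2 was still called higher, none was called lower, and the median log2 fold change was 0.60. The scaled groups did not overlap for Cyp1a2, Cyp2d10 and Cyp2e1, all higher, beside 48% of all genes, 23.9% higher and 24.1% lower. With the length trend of each library removed, Cyp1a2 was again the single gene called, beside 21.1% of all genes, 9.38% higher and 11.7% lower. The median of the 9 was then 0.30, against 0.02 over all tested genes. With quantile normalization these medians were -0.19 and 0.05, so the direction of the median of the 9 depends on the scaling. In the fit that both scaled by median ratio and left out ONX-0914 3, chosen after seeing the data, 5 of the 9 rose (Cyp1a2, Cyp2a5, Cyp2d10, Cyp3a11 and Cyp3a25), beside 52.4% of all genes called, 26.3% higher and 26.1% lower.

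**Figure D1:**
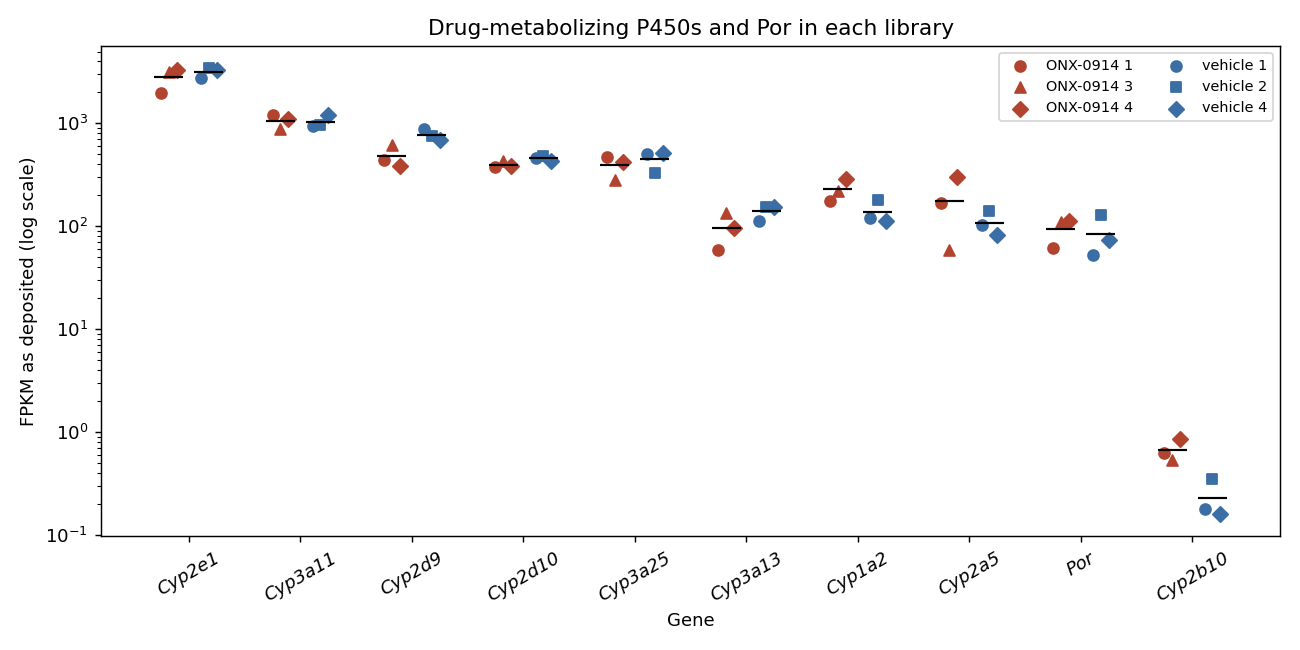
FPKM as deposited (log axis) of the 10 genes in each library, with ONX-0914 libraries in red to the left of vehicle libraries in blue for each gene, and group means as black bars. Cyp2d9 is lower in all 3 ONX-0914 libraries than in any vehicle library, Cyp1a2 has the higher ONX-0914 mean, and Cyp2b10 lies below 1 FPKM everywhere.

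The libraries also differed in several general measures. Deposited values summed to between 1041391 and 1247789 FPKM in ONX-0914 libraries and to between 993264 and 1074027 FPKM in vehicle libraries, and absolute depth is unknown. ONX-0914 3 stood apart: a principal component analysis put 77.3% of the variance on its leading axis, where ONX-0914 3 had a score of -10.6, ONX-0914 1 and 4 had -73.9 and -67.8, and the vehicle libraries had 47.2 to 56.1. ONX-0914 libraries also had lower values for long transcripts. On the log2 scale and relative to the vehicle mean, the median of genes with transcripts over 4332 bases, less the median of genes under 1841 bases, was -0.95, -0.25 and -0.99 in ONX-0914 1, 3 and 4, against -0.03 to 0.04 in vehicle libraries. The 10 genes have transcripts of 1648 to 2956 bases. The label of the tissue matched its markers: the summed level of 7 hepatocyte markers was 76553 to 112998 FPKM in ONX-0914 livers and 95938 to 98700 FPKM in vehicle livers. All 8 endothelial markers fell, with a summed level of 25.4 to 40.6 FPKM in ONX-0914 livers against 166 to 172 FPKM in vehicle livers, and the part of that difference in the values below was not tested. Among the 7 hepatocyte markers 2 rose and none fell, and 4 rose after median-ratio scaling. Of the other marker lists, 4 of 7 Kupffer cell, 5 of 7 stellate cell and 1 of 4 cholangiocyte genes fell, beside 43.5% of all genes. After median-ratio scaling 8 of 8 endothelial, 3 of 7 Kupffer cell, 3 of 7 stellate cell and 0 of 4 cholangiocyte genes fell, and 1 cholangiocyte gene rose. None of 5 neutrophil genes passed in either direction with or without scaling. In whole tissue, fewer cells of a type and less RNA per cell cannot be told apart.

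Cyp2d9 and Cyp2d10 are closely related in sequence. Their coding sequences are 92.5% identical over 1512 bases in the GENCODE M21 annotation of GRCm38, and their promoters are 87.2% identical over 196 aligned bases. The 200 bases before the RefSeq start site of each (GRCm38.p6) are shown because only Cyp2d9 of the pair passed the test as deposited. After median-ratio scaling neither of the pair passed (limma adjusted p = 0.789 for Cyp2d9 and 0.0736 for Cyp2d10). The promoter of Cyp1a2, the gene that rose, is shown beside them. Capitals mark TTCCGG, the core bound by ETS factors such as GABP, and TATAAA, the letters of the TATA box, each sought on both strands. In Cyp2d9 and Cyp2d10 the marked match is TTTATA, the reverse complement of TATAAA.
Cyp2d9 (chr15:82452177-82452376, plus strand): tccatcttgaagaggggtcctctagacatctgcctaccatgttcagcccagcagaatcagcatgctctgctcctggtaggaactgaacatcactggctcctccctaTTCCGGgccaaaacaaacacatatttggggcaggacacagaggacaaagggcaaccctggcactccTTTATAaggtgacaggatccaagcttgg
Cyp2d10 (chr15:82407195-82407394, minus strand): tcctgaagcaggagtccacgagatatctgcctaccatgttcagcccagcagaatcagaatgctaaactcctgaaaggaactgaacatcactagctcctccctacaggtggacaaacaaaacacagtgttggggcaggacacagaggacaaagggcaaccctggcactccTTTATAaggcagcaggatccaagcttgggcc
Cyp1a2 (chr9:57683656-57683855, minus strand): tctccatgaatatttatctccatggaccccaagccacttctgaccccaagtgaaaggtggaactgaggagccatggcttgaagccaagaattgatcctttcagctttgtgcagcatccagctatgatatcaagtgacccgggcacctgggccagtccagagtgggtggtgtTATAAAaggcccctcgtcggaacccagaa
The TTCCGG core stood in the Cyp2d9 window and not in that of Cyp2d10 or any other of the 10 genes, and 10.9% of 27025 RefSeq promoters of this length hold it. It began 94 bases before the start. In mouse, GABP binding at the Cyp2d9 promoter has been tied to expression in males. TATAAA or its reverse complement was in 5 of the 10 windows, those of Cyp1a2, Cyp2a5, Cyp2d9, Cyp2d10 and Cyp2e1. The same held for 10.6% of all promoters. The nuclear receptor motif AGGTCA was in the windows of Cyp3a11 and Cyp3a25 and in 11.2% of all promoters, and the AhR core GCGTG was in those of Cyp2b10 and Por and in 24.8%. The HNF4 element CAAAGTCCA was in the Cyp3a11 window alone and in 0.318% of all promoters. These are matches of letters in a short window, and any part they play in the levels was not tested.

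Cyp1a2, which oxidizes caffeine and aromatic amines, is a classical AhR target and is made mostly around the central vein. It lies on chromosome 9 from 57676937 to 57683703 and has 7 exons. Its level was 178, 221 and 287 FPKM in ONX-0914 livers 1, 3 and 4, whereas vehicle livers 1, 2 and 4 had 120, 179 and 111 FPKM. Vehicle 2 was the highest of its group and just above ONX-0914 1, so the groups overlapped at that single point. The mean was 229 ± 55.3 FPKM with ONX-0914 and 137 ± 37.0 FPKM with vehicle (SD, n = 3 each), and the fitted log2 fold change was 0.74 ± 0.25 (SE; limma adjusted p = 0.0396). Scaled by median ratio the groups no longer overlapped, at 258, 232 and 434 in ONX-0914 livers 1, 3 and 4, whereas vehicle livers 1, 2 and 4 had 87.0, 136 and 88.2, and the log2 fold change was 1.54 (SE 0.30, limma adjusted p = 0.0137). With the length trend removed it was 1.23 (limma adjusted p = 0.0175). As deposited the call was lost without vehicle 1 (0.66, limma adjusted p = 0.135), without vehicle 4 (0.61, limma adjusted p = 0.142) and without ONX-0914 4 (0.56, limma adjusted p = 0.142). The limma adjusted p was 0.0638 with no filter on low values and 0.054 with no variance trend.

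Cyp2e1, the ethanol- and acetaminophen-oxidizing P450 that shares the pericentral zone with Cyp1a2, was the most abundant of the 10 genes in every library. It lies on chromosome 7 from 140763739 to 140774987. Its level was 1988, 3135 and 3284 FPKM in ONX-0914 livers 1, 3 and 4, whereas vehicle livers 1, 2 and 4 had 2791, 3441 and 3274 FPKM. ONX-0914 1 was the lowest library and the other ONX-0914 values lay within the vehicle range. The log2 fold change was -0.21, with a 95% interval of -0.75 to 0.34 (limma adjusted p = 0.498). Scaled by median ratio it was 0.59 (limma adjusted p = 0.165), so its direction depends on the scaling. Among all genes of a library Cyp2e1 ranked 77, 48 and 44 from the top in ONX-0914 1, 3 and 4 and 50, 44 and 46 in vehicle 1, 2 and 4.

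A ratio of 2 genes within a library does not change when the library is scaled by 1 factor, as by median ratio. Quantile normalization and removal of the length trend can change it. For each FPKM of Cyp2e1 there were 0.0894, 0.0704 and 0.0875 FPKM of Cyp1a2 in ONX-0914 livers 1, 3 and 4, whereas vehicle livers 1, 2 and 4 had 0.0431, 0.0521 and 0.0340. Every ONX-0914 library lay above every vehicle library, with means of 0.0825 ± 0.0105 in ONX-0914 livers and 0.0431 ± 0.00906 in vehicle livers (SD, n = 3 each). The exact permutation test, two-sided, gave p = 0.1, the smallest value that 3 libraries against 3 allow. Groups of this size that do not overlap always give that value, so the test adds nothing to the separation. This pair was chosen after the values were seen. The ratios of Cyp3a13 to Cyp3a11, Cyp3a25 to Cyp3a11 and Cyp2a5 to Cyp2e1 were also computed, and in each of them the groups overlapped.

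Cyp2a5, the mouse coumarin hydroxylase, which also oxidizes nicotine and bilirubin, had the largest standard error of the 9 tested genes, 0.50 on the log2 scale. It lies on chromosome 7 from 26835305 to 26843548. Its level was 167, 58.7 and 303 FPKM in ONX-0914 livers 1, 3 and 4, whereas vehicle livers 1, 2 and 4 had 102, 139 and 82.7 FPKM. ONX-0914 1 and 4 stood above all vehicle libraries and ONX-0914 3 below all of them. The log2 fold change was 0.44, with a 95% interval of -0.68 to 1.57 (limma adjusted p = 0.477). Without ONX-0914 3 Cyp2a5 passed, at 1.08 (limma adjusted p = 0.0117), in a fit that called 67.5% of genes, 6.89% higher and 60.6% lower. Without ONX-0914 4 the direction turned, at -0.09 (limma adjusted p = 0.886). By median ratio it was 1.24 with all libraries (limma adjusted p = 0.16). With ONX-0914 3 as the only treated library, values as deposited, it was -0.84 (limma adjusted p = 0.0571), where the lone library is assumed to vary like the vehicle libraries. Of the stretches of 150 bases in its transcript, the read length of the study, 5.79% occur also in Cyp2a4 or a Cyp2a pseudogene, so some reads could have been split among them.

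Cyp2d9, a steroid hydroxylase made chiefly by the male mouse liver, was the gene that fell. In GENCODE M21 it lies on chromosome 15 from 82433437 to 82456845, so the RefSeq start used for its promoter falls inside that span. Its level was 438, 622 and 382 FPKM in ONX-0914 livers 1, 3 and 4, whereas vehicle livers 1, 2 and 4 had 878, 763 and 694 FPKM. Every ONX-0914 library was below every vehicle library, as for 53.5% of all tested genes. The mean was 481 ± 125 FPKM with ONX-0914 and 778 ± 93.1 FPKM with vehicle (SD, n = 3 each), and the fitted log2 fold change was -0.72 ± 0.23 (SE; limma adjusted p = 0.0291), close to the shift of -0.64 in the median gene. Scaled by median ratio the level was 635, 654 and 577 in ONX-0914 livers 1, 3 and 4, whereas vehicle livers 1, 2 and 4 had 636, 578 and 550. There the log2 fold change was 0.08 (limma adjusted p = 0.789), with a 95% interval of -0.41 to 0.57, and with the length trend removed it was -0.32 (limma adjusted p = 0.263). With quantile normalization Cyp2d9 still passed, at -0.79 (95% interval -1.34 to -0.24, limma adjusted p = 0.0468). The median over all tested genes was 0.05 in that fit, so whether Cyp2d9 was called lower depends on the scaling. As deposited the call was lost without any 1 of vehicle 1, 2 and 4 and ONX-0914 1 and 4 (log2 fold changes of -0.80 to -0.57, limma adjusted p = 0.0602 to 0.12).

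Cyp2d10, which lies in the same gene cluster on chromosome 15 from 82402846 to 82407195, was at 373, 429 and 381 FPKM in ONX-0914 livers 1, 3 and 4, whereas vehicle livers 1, 2 and 4 had 464, 482 and 433 FPKM. The ONX-0914 libraries lay below the vehicle libraries without overlap, but the log2 fold change of -0.22 did not pass the test (SE 0.18, limma adjusted p = 0.316). Scaled by median ratio it was 0.58 (limma adjusted p = 0.0736). The Cyp2d9 level for each FPKM of Cyp2d10 was 1.17, 1.45 and 1.00 in ONX-0914 livers 1, 3 and 4, whereas vehicle livers 1, 2 and 4 had 1.89, 1.58 and 1.602. The mean of this ratio was 1.21 ± 0.225 in ONX-0914 livers and 1.69 ± 0.172 in vehicle livers (SD, n = 3 each), with an exact permutation p = 0.1, again the smallest possible. This ratio was also chosen after the values were seen, so here too the test adds nothing to the separation. Of the 150-base stretches, 1.54% of those in Cyp2d9 and 6.4% of those in Cyp2d10 occur in another Cyp2d gene, so a small part of the reads of each could have been split.

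**Figure D2:**
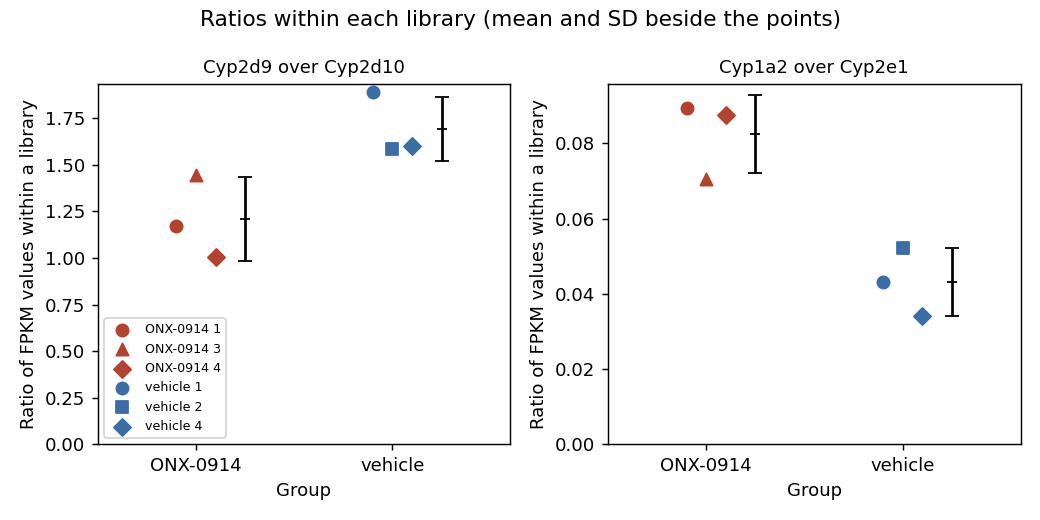
Ratio of FPKM values within each library for Cyp2d9 over Cyp2d10 (left) and Cyp1a2 over Cyp2e1 (right), ONX-0914 in red and vehicle in blue, with the mean and SD of 3 libraries beside the points. The Cyp2d9 ratio averages 1.21 with ONX-0914 and 1.69 with vehicle, the Cyp1a2 ratio 0.0825 and 0.0431, and neither pair of groups overlaps. Both ratios were chosen after the values were seen, and the groups overlapped in the other gene ratios computed, which are not shown.

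The 3 Cyp3a genes lie on chromosome 5 and none of them passed the test. Cyp3a11, the main PXR-responsive P450 of mouse liver, from 145854426 to 145879964, was at 1201, 879 and 1116 FPKM in ONX-0914 livers 1, 3 and 4, whereas vehicle livers 1, 2 and 4 had 944, 964 and 1219 FPKM. The groups overlapped almost fully, with a log2 fold change of 0.03 and a 95% interval of -0.44 to 0.50 (limma adjusted p = 0.915). With median-ratio scaling Cyp3a11 was at 0.83 (limma adjusted p = 0.0789), and also leaving out ONX-0914 3 it passed, at 1.13 (limma adjusted p = 0.00331). Cyp3a25, a neighbouring member of the same cluster from 145977194 to 146009618, was at 472, 284 and 418 FPKM in ONX-0914 livers 1, 3 and 4, whereas vehicle livers 1, 2 and 4 had 507, 331 and 512 FPKM. ONX-0914 3 and vehicle 2 were the lowest of their groups, the groups overlapped, and the log2 fold change was -0.20 with a 95% interval of -0.79 to 0.38 (limma adjusted p = 0.53). Its direction depends on the scaling: by median ratio Cyp3a25 was at 0.60 (limma adjusted p = 0.232), and it passed there without ONX-0914 3, at 0.97 (limma adjusted p = 0.0101). Cyp3a13, which lies apart from this cluster from 137892932 to 137921619 and is also made in the gut, was at 58.4, 134 and 97.0 FPKM in ONX-0914 livers 1, 3 and 4, whereas vehicle livers 1, 2 and 4 had 114, 154 and 154 FPKM. ONX-0914 1 and 4 were below all vehicle libraries and ONX-0914 3 within their range, and the log2 fold change was -0.60 (SE 0.30, limma adjusted p = 0.122). Without ONX-0914 3 Cyp3a13 passed as deposited, at -0.88 (limma adjusted p = 0.0135), and scaled by median ratio it was 0.19 (limma adjusted p = 0.633), so its direction depends on the scaling. The coding sequences of the 3 genes are 76.1% to 76.5% identical to each other, and at most 0.702% of their 150-base stretches occur in another gene.

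Cyp2b10, the phenobarbital-inducible target of CAR, had the lowest level of the 10 genes in every library. It lies on chromosome 7 from 25897620 to 25926624. Its level was 0.63, 0.53 and 0.86 FPKM in ONX-0914 livers 1, 3 and 4, whereas vehicle livers 1, 2 and 4 had 0.18, 0.35 and 0.16 FPKM. The ONX-0914 libraries were all higher, but every value was under the filter of 1 FPKM in at least 3 libraries, and the number of reads behind them is unknown. In a fit with no filter over 16087 genes its log2 fold change was 0.44 (SE 0.12, limma adjusted p = 0.0287), where 30.4% of genes were called, 1.3% higher and 29.1% lower. On the log2(FPKM + 1) scale this understates the ratio of the group means, which was 2.93.

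Por, the reductase gene, lies on chromosome 5 from 135670033 to 135735326 and has 16 exons. Its level was 61.1, 110 and 113 FPKM in ONX-0914 livers 1, 3 and 4, whereas vehicle livers 1, 2 and 4 had 52.8, 128 and 74.2 FPKM. Vehicle 2 was the highest and vehicle 1 the lowest of the 6 libraries, so the ONX-0914 values all lay inside the vehicle range. The log2 fold change was 0.20, with a 95% interval of -0.59 to 0.99 (limma adjusted p = 0.656), and scaled by median ratio it was 0.99 (limma adjusted p = 0.0759). For every 1000 FPKM of the 9 P450s together, Por stood at 12.5, 19.1 and 18.04 FPKM in ONX-0914 livers 1, 3 and 4, whereas vehicle livers 1, 2 and 4 had 8.91, 19.9 and 11.4 FPKM. The summed level of the 9 P450s was 4877, 5764 and 6269 FPKM in ONX-0914 livers 1, 3 and 4, whereas vehicle livers 1, 2 and 4 had 5921, 6453 and 6481 FPKM. Those sums overlapped between groups.

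In the order of levels by vehicle mean, Cyp2e1 came first, then Cyp3a11, Cyp2d9, Cyp2d10, Cyp3a25, Cyp3a13, Cyp1a2, Cyp2a5, Por and Cyp2b10. Within vehicle livers the ranges of Cyp2d10 and Cyp3a25 overlapped, as did those of Cyp3a13 and Cyp1a2, of Cyp1a2 and Cyp2a5, and of Cyp2a5 and Por. The other neighbours in that order did not overlap. Cyp2e1 made up 40.8%, 54.4% and 52.4% of the summed P450 level in ONX-0914 livers 1, 3 and 4, whereas vehicle livers 1, 2 and 4 had 47.1%, 53.3% and 50.5%. Cyp1a2 made up 3.64%, 3.83% and 4.58% in ONX-0914 livers 1, 3 and 4, whereas vehicle livers 1, 2 and 4 had 2.03%, 2.78% and 1.72%, with no overlap.

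**Figure D3:**
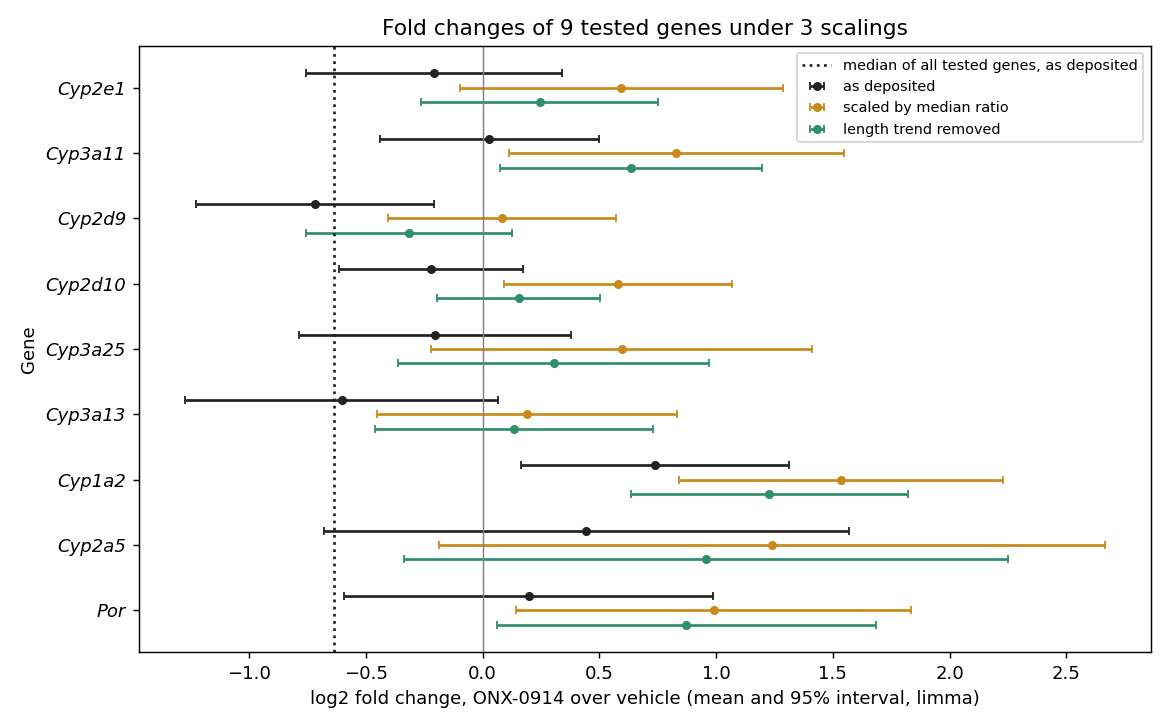
Log2 fold change of ONX-0914 over vehicle for the 9 tested genes, with 95% intervals from limma, for values as deposited, after median-ratio scaling, and after removal of the length trend. The dotted line is the median of all tested genes as deposited, -0.64. Cyp1a2 is above 0 in all 3 settings (0.74, 1.54 and 1.23). Of these 3 settings, only the deposited values put the interval of Cyp2d9 clear of 0. Quantile normalization, where Cyp2d9 was also called lower, is not shown.

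**Figure D4:**
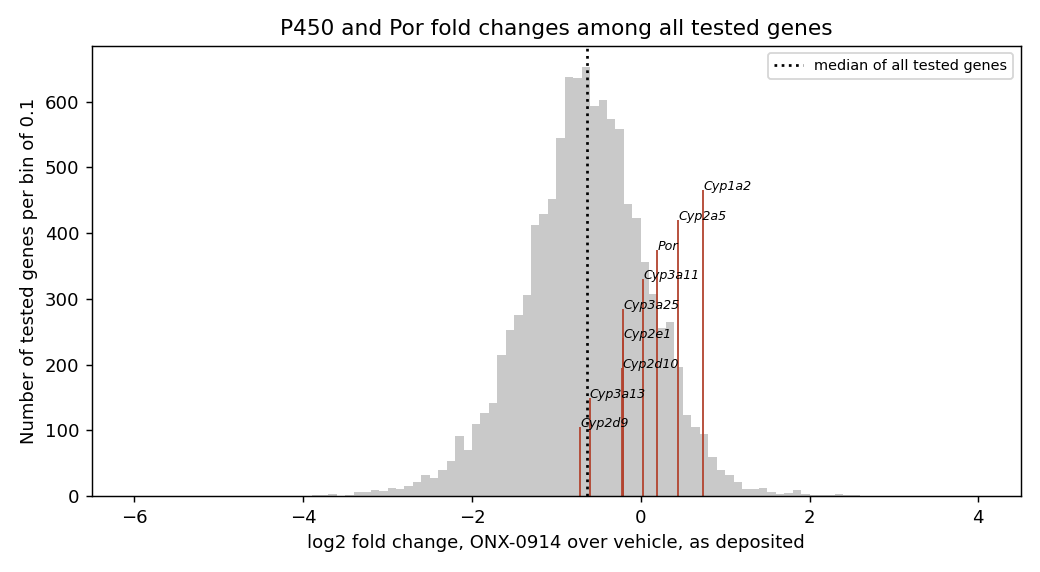
Histogram of the log2 fold changes of 10743 tested genes as deposited, in bins of 0.1, with red lines at the 9 genes (line heights only separate the names and carry no value). The genes lie between -0.72 (Cyp2d9) and 0.74 (Cyp1a2), and 8 of the 9 are to the right of the dotted median of -0.64.

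Other genes of the same system are given as lists, as deposited, beside the 43.5% of tested genes called lower and the 2.56% called higher. Counts after median-ratio scaling stand beside 14.2% of tested genes called lower and 13.8% called higher. Of 31 further P450s of families 1, 2 and 3 in the matrix, 13 were tested. None rose and 4 fell (Cyp2d40, Cyp2j5, Cyp2d22 and Cyp2j6), with a median log2 fold change of -0.49. The largest of these falls was that of Cyp2d40, at 95.7 ± 46.0 FPKM with ONX-0914 and 266 ± 51.4 FPKM with vehicle (SD, n = 3 each), a log2 fold change of -1.58 (limma adjusted p = 0.00824). None of these 4 passed after median-ratio scaling, where 1 of the 13 rose and the median was 0.30. The female-typical Cyp2b9, Cyp2b13 and Cyp3a41a were listed at 0 in all 6 libraries, but not every female-biased P450 was. Cyp2a4 was at 43.1 to 94.5 FPKM in ONX-0914 livers and 99.8 to 267 FPKM in vehicle livers. Cyp3a44 was at 0.05 to 0.74 FPKM in ONX-0914 livers and 0 to 0.04 FPKM in vehicle livers. The classical AhR target Cyp1a1 was at 0, 0.15 and 0.47 FPKM in ONX-0914 livers 1, 3 and 4, whereas vehicle livers 1, 2 and 4 had 0.09, 0 and 0.04 FPKM. Of the 3 tested genes among 7 other AhR targets, Tiparp and Ugt1a6a fell, and after median-ratio scaling Ugt1a6a did and Tiparp did not pass (-0.70, limma adjusted p = 0.0764).

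Of 8 genes for electron transfer partners of P450s, 4 fell and none rose, beside 43.5% of all tested genes called lower. Their median log2 fold change was -0.85, or -0.09 after median-ratio scaling. Cyb5r3, which encodes cytochrome b5 reductase, was at 74.3 ± 30.7 FPKM with ONX-0914 and 337 ± 54.1 FPKM with vehicle (SD, n = 3 each), a log2 fold change of -2.23 (limma adjusted p = 0.00155). Pgrmc2, Cyb5b and Pgrmc1, heme-binding membrane proteins, fell too, at -2.18, -1.48 and -1.30. After median-ratio scaling Cyb5r3, Pgrmc2 and Cyb5b still passed, at -1.43, -1.44 and -0.69, and Pgrmc1 did not (-0.50, limma adjusted p = 0.25). Cyb5a, the microsomal cytochrome b5 that hands electrons to some P450s, was at 1892, 1970 and 2026 FPKM in ONX-0914 livers 1, 3 and 4, whereas vehicle livers 1, 2 and 4 had 1641, 2132 and 2044 FPKM. Cyb5a did not pass the test (0.03, limma adjusted p = 0.918).

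Of 12 genes of heme synthesis and breakdown, 2 rose and 2 fell, with a median log2 fold change of -0.11. After median-ratio scaling 4 rose and 1 fell, beside 13.8% of all genes higher and 14.2% lower, and the median was 0.67. Alad, which encodes an early enzyme of heme synthesis, was at 176 ± 65.0 FPKM with ONX-0914 and 91.8 ± 5.59 FPKM with vehicle (SD, n = 3 each), and Blvrb, a biliverdin reductase gene, at 313 ± 87.6 and 180 ± 21.8 FPKM. Both rose, with log2 fold changes of 0.87 and 0.76 (limma adjusted p = 0.0273 and 0.0334). Cpox and Fech, whose products act in the last steps of heme synthesis, fell, with log2 fold changes of -2.39 and -1.70. Fech did not pass scaled by median ratio (-0.92, limma adjusted p = 0.0592). Alas1, the rate-limiting gene of the pathway, did not pass the test, at 133, 167 and 133 FPKM in ONX-0914 livers 1, 3 and 4, whereas vehicle livers 1, 2 and 4 had 54.0, 246 and 223 FPKM.

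Of 14 transcription factor genes that regulate P450s, 9 fell and none rose, beside 43.5% of all tested genes called lower. Their median log2 fold change was -1.27, against -0.64 over all tested genes. Scaled by median ratio 4 fell, beside 14.2% of all tested genes, and the median was -0.65. Hnf4a, at -2.23 as deposited, did not pass there (-1.48, limma adjusted p = 0.065). Rxra, which encodes the partner of CAR and PXR, was at 5.41 ± 4.90 FPKM with ONX-0914 and 46.0 ± 4.34 FPKM with vehicle (SD, n = 3 each), a log2 fold change of -3.13 (limma adjusted p = 0.0018), and after median-ratio scaling -2.43 (limma adjusted p = 0.00744). The CAR gene Nr1i3 fell, at 30.4, 37.2 and 38.4 FPKM in ONX-0914 livers 1, 3 and 4, whereas vehicle livers 1, 2 and 4 had 99.0, 97.2 and 91.3 FPKM. The PXR gene Nr1i2 (-0.47, limma adjusted p = 0.224) and Ahr (-1.13, limma adjusted p = 0.0651) did not pass.

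By zone, 7 of 12 tested pericentral genes other than P450s and 11 of 16 periportal genes fell, and none rose in either list. Over all tested genes 43.5% were called lower. The median log2 fold changes were -0.90 and -1.06, against -0.64 over all tested genes. After median-ratio scaling no pericentral gene passed, and 1 periportal gene rose and 1 fell, beside 13.8% of all genes higher and 14.2% lower. Glul, the glutamine synthetase gene and a defining pericentral marker, was at 246 ± 76.6 FPKM with ONX-0914 and 672 ± 110 FPKM with vehicle (SD, n = 3 each), a log2 fold change of -1.48 (limma adjusted p = 0.00325), and after median-ratio scaling -0.69 (limma adjusted p = 0.0647). Of 12 male-biased liver genes, Cyp2d9 fell and 3 rose: Selenbp2 (1.75), Cyp7b1 (1.16) and Mup20 (0.99). With median-ratio scaling 5 of the 12 rose and none fell, Cyp2d9 included among those that did not pass. The median of the 12 was -0.32 as deposited and 0.47 with that scaling, where 13.8% of all genes were called higher. Of 14 female-biased genes 3 were tested, and 2 of these, Cyp17a1 and Cyp39a1, fell. Only Cyp17a1 of the 3 still passed with that scaling, and Cyp39a1 did not (-1.53, limma adjusted p = 0.0536).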

How the data were processed

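Liver RNA of 6 libraries was analysed, 3 from ONX-0914 treated and 3 from vehicle treated mice. Per the labels' protocols, RNA was extracted with TRIzol, and mRNA was enriched and fragmented, and the design text gives paired reads of 150 bases. The submitters' processing notes list, without role or order, the aligner HISAT2 2.0.1, the counter featureCounts 1.6.0, edgeR, the trimmer cutadapt 1.11 and FastQC 0.11.5. They give GRCm38 and mm10 as genome builds. What the authors deposited is a matrix of FPKM, rounded to 2 decimals. The unit was read from the values, and strandedness and the treatment of reads shared between genes are not given in the sources used here.

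Genes above 1 FPKM in at least 3 libraries were tested on log2(FPKM + 1) with limma (version 3.58.1, R 4.3.3), using a variance trend and no block. For low genes this scale shows less than the full change. Median-ratio factors were medians, over tested genes above 0 in every library, of a library's value over the geometric mean. The length trend was a lowess curve, library by library, of the difference from the vehicle mean against transcript length (the longest coding transcript in GENCODE M21), which 98.2% of tested genes had. Coordinates are from GENCODE M21, and promoters are from RefSeq on GRCm38.p6, where all 10 genes matched by symbol. Sequences were compared with Biopython 1.88. The fit was tested on simulated data drawn from vehicle means and spread, with no general or length-related shift. That test cannot show how the fit behaves under the shifts seen here. All 10 genes are described, and from each list up to 4 called genes with the largest changes were eligible, not all of which are printed. A few others (Cyp2b9, Cyp2b13, Cyp3a41a, Cyp2a4, Cyp3a44, Cyp1a1, Cyb5a, Alas1, Nr1i2, Nr1i3, Ahr, Ces2a and Ces3a) were named after their values were seen. The genes and lists were chosen with earlier results of these data known.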

Additional observations from a re-analysis of the deposited data

How the results depend on the processing

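As deposited, 275 genes were called higher and 4673 lower with ONX-0914. The higher count was 1481 scaled by median ratio, 1074 by upper quartile, 1118 with quantile normalization, 990 with the length trend removed and 2828 scaled by median ratio without ONX-0914 3, a setting chosen after seeing the data. The lower count in those settings was 1527, 1956, 1334, 1238 and 2806, and 2992 with ONX-0914 3 alone. Leaving out 1 library gave 92 to 740 higher and 2590 to 6514 lower. Of the 9 tested genes, 1 was called higher as deposited, 5 in the setting added, and 0 with ONX-0914 3 alone or no variance trend, with 0 to 2 when leaving out 1 library. The 1 called lower became 0 under median ratio, upper quartile, length removal and the setting added, with 0 to 2 when leaving out 1 library. With quantile normalization the count called lower stayed at 1, again Cyp2d9.

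Directions turned in the following cases, and the cause was not tested. By median ratio, Cyp2d9 was 0.082, Cyp2d10 0.58, Cyp2e1 0.59, Cyp3a13 0.19 and Cyp3a25 0.60 (log2), and in the setting added 0.045, 0.68, 0.66, 0.078 and 0.97. By upper quartile, Cyp2d10 was 0.39, Cyp2e1 0.40, Cyp3a13 0.00063 and Cyp3a25 0.41, and with the length trend removed 0.15, 0.24, 0.13 and 0.30. Cyp3a11 was -0.19 with quantile normalization and -0.24 with ONX-0914 3 alone, where Cyp2a5 was -0.84. Leaving out 1 library gave -0.089 to 1.08 for Cyp2a5, -0.34 to 0.024 for Cyp2e1, -0.064 to 0.16 for Cyp3a11, -0.41 to 0.010 for Cyp3a25 and -0.094 to 0.54 for Por. Pseudocounts of 0.1 and 10, a filter on the mean and a robust fit left the direction and side of the threshold of all 9 genes as they were. Cyp1a2 kept its direction in all 19 alternatives and missed the threshold in 6.

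The groups share only the numbers 1 and 4, and same-numbered libraries did not deviate together at number 1 (r = 0.0011, against 0.13 at number 4), so the numbers were not taken as pairs. A replicate block gave 604 genes higher and 5973 lower, and of the 9 genes 2 higher and 2 lower. With the block, a library whose number occurs in only 1 group does not bear on the fold change. The fold change then rests on numbers 1 and 4 alone, taken as pairs. The block added calls for Cyp2a5 (1.28, limma adjusted p = 0.00422) and Cyp3a13 (-0.81, limma adjusted p = 0.0118) and left the other 7 on the same side of the threshold. These added calls are therefore not independent of the fits that leave out 1 library. Depth is unknown, so no counting interval can be given.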

Other observations

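Of 30 tested phase I enzyme genes other than P450s, 16 fell and 2 rose (Ces2a and Ces3a, carboxylesterase genes), beside 43.5% of all tested genes called lower and 2.56% called higher. Their median log2 fold change was -0.60, near the -0.64 of all tested genes. After median-ratio scaling 6 of the 30 rose and 3 fell, beside 13.8% of all genes higher and 14.2% lower. Aldh3a2, which encodes a fatty aldehyde dehydrogenase, was at 12.4 ± 11.3 FPKM with ONX-0914 and 101 ± 5.42 FPKM with vehicle (SD, n = 3 each), a log2 fold change of -3.26 (limma adjusted p = 0.00211), and -2.52 scaled by median ratio. Ces1d, a lipid-hydrolysing carboxylesterase gene, had a log2 fold change of -2.01, and the flavin monooxygenase genes Fmo1 and Fmo5 had -1.65 and -1.56. After median-ratio scaling Ces1d and Fmo1 still passed, at -1.21 and -0.86, and Fmo5 did not (-0.77, limma adjusted p = 0.17). Fmo5 was at 39.6, 185 and 61.1 FPKM in ONX-0914 livers 1, 3 and 4, whereas vehicle livers 1, 2 and 4 had 224, 241 and 220 FPKM, so that ONX-0914 3 lay closer to vehicle than to the other treated libraries.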
